A study of Mus musculus with 12 samples.

Results

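The 35 genes described here encode proteins that copy chromosomal DNA, from the complex that marks replication origins to the factors that rebuild chromatin behind the fork. They were chosen by gene symbol from the probe annotation, and all 35 were among the 19938 genes measured. No measured value entered that rule, but the list was chosen with earlier results of these data known. Pcna and Rpa3 had 2 probe sets each and every other gene had 1, which gave 37 probe sets in all, and the probe set with the higher mean stood for its gene. The series asks how deletion of Zfx, a zinc finger transcription factor encoded on the X chromosome, affects the expression changes that Myc brings about in myeloid progenitors of mouse bone marrow.

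The 12 arrays fell into 4 groups of 3, formed by 2 viruses and 2 genotypes. Marrow donors were Zfx wt/y CreER or Zfx fl/y CreER mice. Both genotypes carried CreER, a Cre recombinase that acts when tamoxifen is present, and both received tamoxifen by gavage at 5 mg a day for 3 days. Arrays from Zfx fl/y CreER cells are labelled Zfx ko and those from Zfx wt/y CreER cells Zfx wt. The c-Kit+ progenitors of each genotype were infected either with a retrovirus that carried Myc and a GFP marker (the Myc groups) or with a control retrovirus that carried GFP alone (the GFP groups). All groups were grown in RPMI 1640 with 20% serum and 10 ng/mL of each of the cytokines SCF, IL-3 and IL-6, sorted for GFP at 48 hours and kept in culture for 4 more days. No source used here gives the promoter that drives CreER or the strain and age of the mice. The labels do not say whether arrays of a group came from separate animals or cultures, so p-values measure only the spread between arrays, which may be technical.

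Values are probe set intensities on the linear scale that the authors made with RMA, which corrects the background, makes arrays comparable and summarises probes, and groups were compared on their log2. The Zfx probe set did not separate the genotypes. Its intensity was 862, 987 and 989 on the GFP Zfx wt arrays and 996, 972 and 1090 on the GFP arrays labelled Zfx ko. The Myc virus groups gave 1020, 991 and 966 in wt and 1040, 1120 and 991 in the arrays labelled ko. The log2 difference, ko minus wt, was 0.11 with GFP (limma adjusted p = 0.619) and 0.08 with Myc (adjusted p = 0.789), and where on the transcript these probes lie is unknown from the table. Every statement on genotype below therefore rests on the labels, and ko stands for the arrays labelled Zfx ko. The Myc probe set did follow the virus, at 2790 to 3150 with GFP and 4840 to 5490 with Myc in wt, and at 2550 to 2840 and 4750 to 5210 in the arrays labelled ko. The progenitor markers Mpo and Elane, granule enzymes of early myeloid cells, read 9640 to 14600 and 11100 to 17300 over all arrays. Others of the 10 progenitor markers were lower, with Kit at 691 to 1580 and Flt3 at 64.1 to 88. The neutrophil maturation marker Lcn2 was also bright, at 8700 to 16400. Lymphoid markers differed among themselves, where the lowest value of the table was 17.68. Group means were 35.9 to 37.4 for Cd79a, 67.5 to 69.5 for Pax5, 107 to 119 for Cd3e and 37 to 38.3 for Cd3g, but 654 to 901 for Cd79b, 257 to 1050 for Thy1 and 135 to 164 for Igll1.

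A chromosome is copied once per cell cycle in steps that these genes carry out. In G1 the origin recognition complex, Cdc6 and Cdt1 load the ring-shaped Mcm2-7 helicase onto DNA. In S phase Cdc45 and the GINS complex join the helicase and switch it on, with Mcm10 as a further activation factor. DNA polymerase alpha with its primase then lays down primers, polymerases delta and epsilon extend them, Pcna clamps the polymerases to DNA after the RFC complex has opened the clamp, and RPA coats the bare single strands. Fen1 and Lig1 trim and join the pieces of the lagging strand, and the Chaf1 proteins place histones on the new DNA. Transcription of many of these genes rises at the G1 to S boundary under E2F factors, and Myc is known as a driver of entry into the cycle, so that they are often read as a sign of how actively cells divide.

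Promoter windows are shown for the 4 members with the lowest adjusted p for Myc against GFP averaged over genotypes that had a RefSeq window, because these genes carry the Myc result. Each sequence runs 5′ to 3′ on the gene's own strand over the 250 bases before an annotated transcript start (RefSeq, GRCm38.p6), and capitals mark every match to a motif that was searched for on both strands.
Pola2, chr19:5964207-5964456, minus strand: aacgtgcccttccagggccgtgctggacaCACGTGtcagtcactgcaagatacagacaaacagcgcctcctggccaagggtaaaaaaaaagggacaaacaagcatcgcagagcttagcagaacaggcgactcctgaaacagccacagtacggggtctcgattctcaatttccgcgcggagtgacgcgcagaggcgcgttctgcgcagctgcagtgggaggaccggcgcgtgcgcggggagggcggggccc
Rpa2, chr4:132768110-132768359, plus strand: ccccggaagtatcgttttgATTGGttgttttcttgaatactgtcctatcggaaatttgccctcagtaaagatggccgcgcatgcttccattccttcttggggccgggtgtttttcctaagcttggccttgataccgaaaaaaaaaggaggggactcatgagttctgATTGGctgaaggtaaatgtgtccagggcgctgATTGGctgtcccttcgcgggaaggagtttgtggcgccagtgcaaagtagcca
Orc1, chr4:108579204-108579453, plus strand: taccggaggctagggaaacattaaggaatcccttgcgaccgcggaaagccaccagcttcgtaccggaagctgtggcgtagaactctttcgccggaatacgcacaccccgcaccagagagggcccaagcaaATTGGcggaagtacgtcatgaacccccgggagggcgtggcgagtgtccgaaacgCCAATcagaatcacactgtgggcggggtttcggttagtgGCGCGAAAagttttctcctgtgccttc
Mcm10, chr2:5012792-5013041, minus strand: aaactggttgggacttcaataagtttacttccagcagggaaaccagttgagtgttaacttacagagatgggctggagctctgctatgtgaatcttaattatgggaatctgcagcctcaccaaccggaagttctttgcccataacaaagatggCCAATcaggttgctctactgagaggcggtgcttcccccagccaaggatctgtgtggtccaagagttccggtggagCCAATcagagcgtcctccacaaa
The motifs were CACGTG (the E-box that Myc binds together with Max), TTTCGCGC and TTTGGCGC (E2F-type sites), AGGCCT (the core of the motif known for ZFX) and CCAAT (the box bound by NF-Y), and the matches in these 4 windows did not overlap one another. The start used for Rpa2 and for Mcm10 is the first base of the gene record, while that for Pola2 lies 32 bases and that for Orc1 3749 bases inside it. Pola2 held CACGTG 221 bases before the start used, and no other printed window held it. Orc1 held TTTCGCGC, read on the opposite strand as GCGCGAAA, 27 bases before that start, beside 2 CCAAT boxes. Rpa2 held 3 CCAAT boxes, written ATTGG where they lie on the opposite strand, and Mcm10 held 2. A RefSeq window was found for 28 of the 35 members, with 32 windows in all, and Mcm4, Gins1, Gins2, Gins4, Prim2, Pole and Rfc2 were not matched. CACGTG stood in 15.6% of the member windows and in 6.02% of all 32851 windows of the same length, in Chaf1a, Fen1, Pola2, Rfc1 and Rpa1. Either E2F-type site stood in 15.6% of member windows and in 0.654% of all windows, in Mcm5, Mcm6, Orc1, Pola1 and Rfc3. CCAAT stood in 62.5% against 33.8%, and AGGCCT in 12.5% against 8.7%, in Cdc45, Mcm5, Prim1 and Rpa1. These matches describe letters in the windows and were not tested as binding sites.

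A part of the replication genes rose with Myc by modest amounts, and no member fell (limma on all 12 arrays, Benjamini-Hochberg adjusted p under 0.05 over all genes). Averaged over genotypes, 14 of 35 members rose, led by Orc1 at 1.34-fold, Pola2 at 1.32-fold and Rpa2 at 1.26-fold, where 13.2% of all genes tested rose. The 0 members that fell compare with 8.07% of all genes. The median log2 difference of the 35 was 0.15, against 0 over all genes, and 34 of 35 were above 0. The risers held members of 6 of the 9 roles. They were Orc1 and Orc6, the origin recognition subunits on the list, Mcm2 and Mcm7 of the helicase, and Gins1, Gins4 and Mcm10. The rest were 4 polymerase and primase subunits, Rfc1 and Rfc4 of the clamp loader, and Rpa2. With the replicate number, which equal numbers share across groups, as a block in the fit, 18 rose, where 18.4% of all genes did, and 0 fell, where 13.6% did. The 4 added were Cdt1 (adjusted p = 0.0147 with the block, 0.0519 without), Prim2 (0.017, 0.0872), Pold1 (0.0407, 0.311) and Chaf1b (0.011, 0.072), and 8 of the 9 roles then held a riser. Pcna, Mcm5, Lig1, Rfc2 and Gins3 had differences near 0. In these bulk cultures, fewer cells of a type and less RNA per cell cannot be told apart.

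In Zfx wt, Myc raised 2 of 35 members, Pola2 and Orc1, where 6.17% of all genes rose and 3.11% fell, so the share of members was near that of all genes. With the block 5 rose, with Rpa2, Rfc1 and Pole added, and 12.2% of all genes did. In the arrays labelled ko, Myc raised 14 of 35, where 8.58% of all genes rose and 4.59% fell. With the block 19 rose, with Cdt1, Mcm7, Rfc1, Rpa3 and Chaf1b added, and 14.5% of all genes did. The lowest Myc array stood above the highest GFP array in 9 members in wt (15.1% of all genes) and in 21 members in ko (15.6%), and the reverse held for 0 members in either genotype (9.44% and 9.88% of all genes). Median log2 differences were 0.09 in wt, with 27 of 35 above 0, and 0.20 in ko, with 35 of 35 above 0, against 0 and 0.01 over all genes. Without the array Myc Zfx ko 3 the count in ko was 3, without GFP Zfx ko 1 it was 5, without GFP Zfx ko 2 it was 8 and without GFP Zfx wt 3 it was 9. In wt the count was 0 without Myc Zfx wt 1, Myc Zfx wt 3 or GFP Zfx wt 3. It was 1 without GFP Zfx wt 1 or 2, Myc Zfx wt 2, Myc Zfx ko 2 or 3, or GFP Zfx ko 3. Each of these refits had fewer arrays for every gene, and the share of all genes called in it was not counted.

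**Figure D1:**
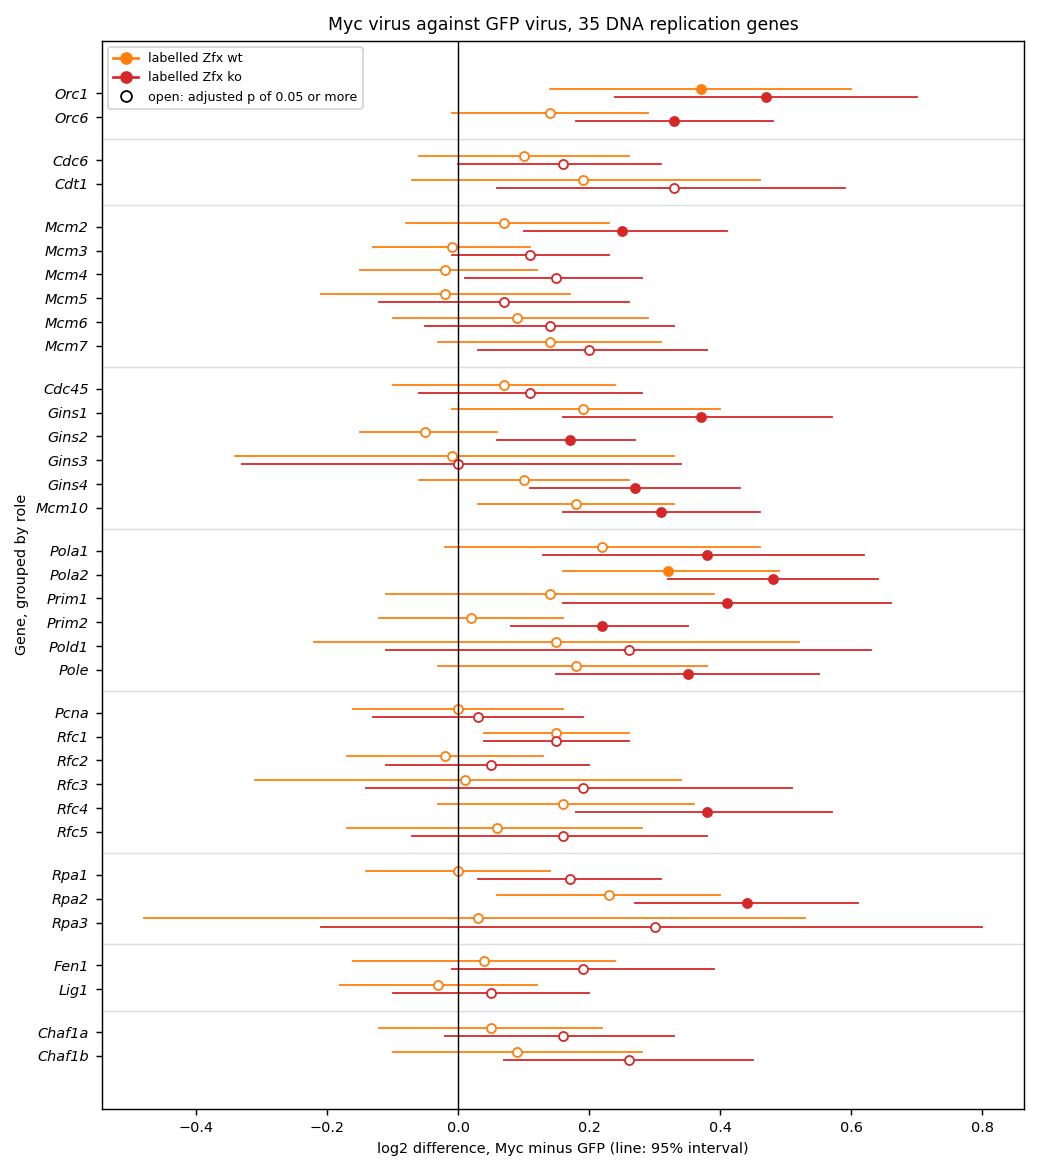
Log2 difference between Myc and GFP arrays for each of the 35 genes, grouped by role, in Zfx wt (orange) and in the arrays labelled Zfx ko (red), with unadjusted 95% intervals as lines and filled points where the adjusted p was under 0.05. Filled points number 2 in wt and 14 in ko, and no filled point lies below 0.

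Several arrays stood apart for these genes. Relative to each gene's mean over the 12 arrays, the array GFP Zfx ko 1 had a median of -0.20 (log2), with 1 of 35 genes above its mean, and the array Myc Zfx ko 3 had a median of 0.16, with 35 of 35 above. The GFP Zfx ko arrays 2 and 3 had medians of -0.10 and -0.03, and the 3 GFP Zfx wt arrays -0.02 to -0.04, with 12 to 16 genes above their means. The 3 Myc Zfx wt arrays lay between 0.05 and 0.06, and the Myc Zfx ko arrays 1 and 2 at 0.08 and 0.05. All 6 Myc arrays thus had positive medians and all 6 GFP arrays negative ones. These deviations also hold the differences between groups. Relative to the mean of its own group, GFP Zfx ko 3 had a median of 0.08, with 34 of 35 genes above. On the same measure GFP Zfx ko 1 had -0.08, with 9 genes above, and Myc Zfx ko 3 had 0.06, with 30 above. The other arrays lay between -0.03 and 0.03.

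**Figure D2:**
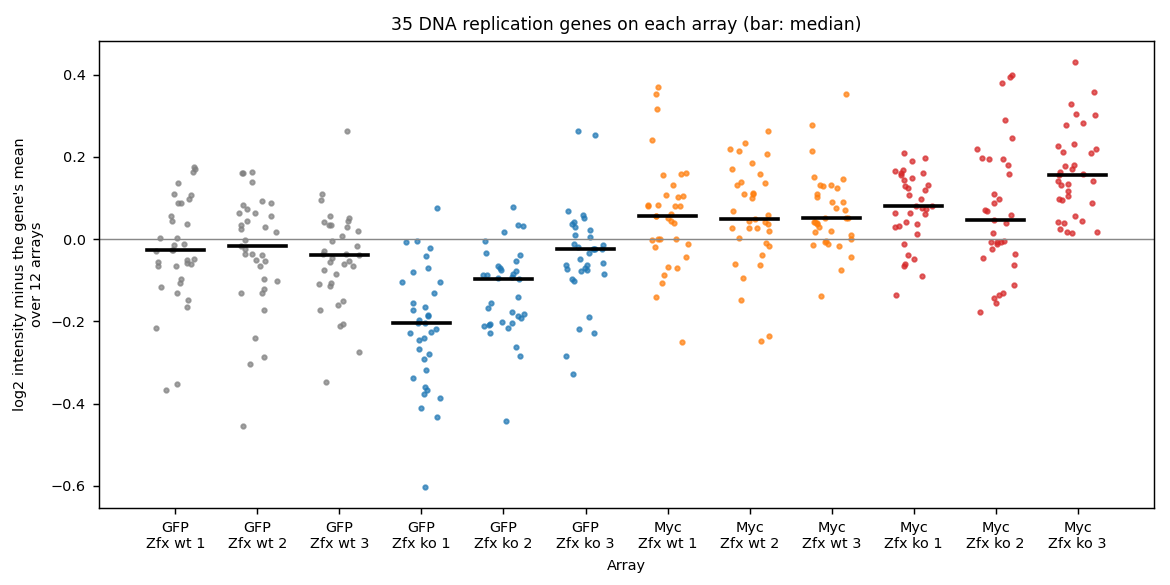
Log2 intensity minus the gene's mean over 12 arrays (vertical axis) for the 35 genes on each array, with the median as a bar. GFP Zfx ko 1 is lowest, with a median of -0.20, and Myc Zfx ko 3 is highest, with a median of 0.16.

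Markers of other cell types also differed between the groups in which replication genes were compared. The 14 measured neutrophil maturation markers of 15 had a summed intensity of 80000 to 98500 on the GFP Zfx wt arrays and 41400 to 57000 on the Myc Zfx wt arrays, and of 79400 to 99100 and 48600 to 56300 on the GFP and Myc arrays labelled ko. The 13 of 14 measured mast cell and basophil markers summed to 23800 to 30300 (GFP wt), 13300 to 18700 (GFP ko), 10700 to 25900 (Myc wt) and 5270 to 9410 (Myc ko). The 9 of 11 measured erythroid markers summed to 3890 to 4880, 4450 to 5120, 4840 to 6430 and 6110 to 11500 in the same order. A large part of these sums came from their brightest gene, Tfrc, with group means of 3180, 3120, 3880 and 3710 in that order. The 10 progenitor markers summed to 66700 to 76100, 59100 to 68900, 59000 to 65500 and 49200 to 59500. The 9 of 11 monocyte and macrophage markers summed to 4760 to 7950, 7210 to 8600, 3440 to 6290 and 4440 to 7310, and the 7 of 8 B lymphoid and 7 of 8 T lymphoid markers to at most 1540 and 2190 on any array. The neutrophil sums of the Myc arrays lay below those of the GFP arrays in both genotypes, and the erythroid sums lay above them in ko. The part of these markers in the replication results was not tested.

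Both members that recognise origins rose with Myc. Orc1, an ATPase subunit of the complex, read 365, 425 and 385 on the GFP Zfx wt arrays and 462, 548 and 509 on the Myc Zfx wt arrays. In the arrays labelled ko it read 363, 453 and 434 with GFP and 523, 606 and 597 with Myc. All 6 Myc arrays lay above all 6 GFP arrays. In wt the rise was 1.29-fold (95% interval 1.10 to 1.51, adjusted p = 0.0491). In ko it was 1.38-fold (1.18 to 1.62, adjusted p = 0.0135). The wt call was close to the threshold, and its adjusted p ran from 0.00102 to 0.161 over the alternatives.

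Orc6, the small subunit of the same complex, gave 2240, 2200 and 2020 with GFP and 2350, 2420 and 2340 with Myc in wt, and 1960, 2160 and 1940 with GFP and 2360, 2630 and 2610 with Myc in ko. Again no GFP array reached a Myc array. Orc6 rose 1.26-fold in ko (1.13 to 1.39, adjusted p = 0.00948), and in wt the ratio was 1.10 (0.995 to 1.22, adjusted p = 0.28). The loading factors Cdc6 and Cdt1 did not pass in either genotype without the block. Cdc6 ranged from 488 to 632 and Cdt1 from 1500 to 2360 over the 12 arrays. The largest loading difference was that of Cdt1 in ko, a log2 value of 0.33 (interval 0.06 to 0.59, adjusted p = 0.108, and 0.0325 with the replicate number as a block).

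Of the 6 subunits of the Mcm2-7 ring, Mcm2 rose with Myc in ko without the block, and Mcm2 and Mcm7 did with it. Mcm2 read 3520, 3290 and 3290 with GFP and 3610, 3480 and 3540 with Myc in wt. In ko it read 3180, 2850 and 3270 with GFP and 3820, 3400 and 3870 with Myc. The groups overlapped in wt and did not in ko, where Mcm2 was 1.19-fold higher with Myc (1.07 to 1.33, adjusted p = 0.036). In wt its ratio was 1.05 (0.946 to 1.17, adjusted p = 0.716). Mcm7 ranged from 2990 to 3790 and passed in the average over genotypes (1.13-fold, 1.03 to 1.23, adjusted p = 0.0492). In ko the log2 difference of Mcm7 was 0.20 (0.03 to 0.38, adjusted p = 0.126, and 0.0173 with the block). For Mcm3, Mcm4, Mcm5 and Mcm6 the Myc differences missed the threshold in each genotype, with log2 values of -0.02 to 0.09 in wt and 0.07 to 0.15 in ko. Mcm5, averaged over genotypes, differed by 0.02 with an interval of -0.11 to 0.16.

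Among the factors that switch the helicase on, 4 of 6 rose with Myc in ko (8.58% of all genes) and 0 of 6 in wt (6.17%). The difference between genotypes in the Myc effect, tested below, passed for none of the 6. Gins1, a subunit of the GINS complex, was 741, 791 and 765 with GFP against 873, 923 and 832 with Myc in wt, and 601, 759 and 776 against 868, 962 and 913 in ko. Every Myc array was above every GFP array. Its rise was 1.29-fold in ko (1.12 to 1.49, adjusted p = 0.0256) and its ratio in wt was 1.14 (0.992 to 1.32, adjusted p = 0.284). Mcm10, which helps to start unwinding, was 1230, 1230 and 1190 against 1440, 1290 and 1410 in wt, and 1100, 1130 and 1220 against 1440, 1330 and 1510 in ko. Here too the 6 Myc arrays lay above the 6 GFP arrays. Mcm10 rose 1.24-fold in ko (1.12 to 1.38, adjusted p = 0.0137), with a ratio of 1.13 in wt (1.02 to 1.26, adjusted p = 0.146).

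Gins4 gave 1600, 1620 and 1670 with GFP and 1640, 1830 and 1770 with Myc in wt, which overlapped, and 1370, 1480 and 1640 against 1790, 1730 and 1880 in ko, which did not. The rise in ko was 1.21-fold (1.08 to 1.35, adjusted p = 0.0315). Gins2 was 1120, 1140 and 1100 with GFP and 1080, 1100 and 1070 with Myc in wt, and 908, 869 and 893 with GFP and 957, 1010 and 1030 with Myc in ko. The Myc arrays of Gins2 were above the GFP arrays in ko but not in wt: 1.12-fold in ko (1.04 to 1.21, adjusted p = 0.0425) and a log2 difference of -0.05 in wt (-0.15 to 0.06, adjusted p = 0.753). Cdc45 ranged from 1240 to 1590 and Gins3 from 550 to 809, and neither passed. Averaged over genotypes Gins3 differed by 0.00, with an interval of -0.24 to 0.24.

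The polymerase and primase group held the lowest adjusted p of any member. Pola2, the regulatory subunit of DNA polymerase alpha whose promoter window is printed above, read 1240, 1080 and 1130 with GFP and 1480, 1350 and 1480 with Myc in wt. In ko it read 886, 853 and 923 with GFP and 1300, 1140 and 1270 with Myc. The groups did not overlap in either genotype. In wt Pola2 rose 1.25-fold (1.12 to 1.40, adjusted p = 0.0201). In ko it rose 1.39-fold (1.25 to 1.56, adjusted p = 0.00272). In wt its adjusted p ran from 0.00178 to 0.0856 over the alternatives, and in ko it stayed at or below 0.0239 in all that were run.

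Pola1, the catalytic subunit of the same enzyme, read 1010, 872 and 890 with GFP and 1090, 1080 and 1060 with Myc in wt. In ko it read 775, 993 and 1060 with GFP and 1120, 1260 and 1270 with Myc, again without overlap within a genotype. The rise in ko was 1.30-fold (1.10 to 1.54, adjusted p = 0.0464), and the ratio in wt was 1.17 (0.986 to 1.38, adjusted p = 0.30). Prim1, the catalytic primase subunit, read 974, 1110 and 983 against 1060, 1260 and 1060 in wt and 846, 1040 and 1030 against 1150, 1440 and 1270 in ko. The primase groups were apart only in ko, where Prim1 rose 1.33-fold (1.12 to 1.58, adjusted p = 0.0376). Prim2, its partner, read 1590, 1630 and 1640 against 1580, 1690 and 1670 in wt and 1440, 1620 and 1630 against 1730, 1900 and 1830 in ko. Prim2 rose 1.16-fold in ko (1.06 to 1.28, adjusted p = 0.0457) and had a ratio of 1.02 in wt (0.923 to 1.12, adjusted p = 0.942).

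Pole, the catalytic subunit of the leading-strand polymerase, read 1640, 1490 and 1770 with GFP and 1890, 1640 and 2010 with Myc in wt, and 1690, 1580 and 1800 with GFP and 2100, 2080 and 2280 with Myc in ko. Within each replicate number the Myc array was the higher of the pair in both genotypes. Pole rose 1.28-fold in ko (1.11 to 1.47, adjusted p = 0.0283). In wt the ratio was 1.13 (0.983 to 1.30), with an adjusted p of 0.333 and of 0.0289 with the replicate number as a block. Pold1, the catalytic subunit of polymerase delta, ranged from 732 to 1250 and passed only in the average over genotypes with the block (adjusted p = 0.0407). Without the block its log2 difference there was 0.21 (-0.06 to 0.47, adjusted p = 0.311).

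Pcna, the sliding clamp and a common marker of S phase, did not follow the virus. It read 6460, 6860 and 6400 with GFP and 6230, 7050 and 6490 with Myc in wt, and 5790, 6890 and 6570 against 6350, 6710 and 6600 in ko. The groups overlapped in both genotypes, and the log2 difference averaged over genotypes was 0.02 with an interval of -0.10 to 0.13. A second Pcna probe set gave a value of 0.02 as well. Of the clamp loader, Rfc4 read 2930, 2900 and 2750 with GFP and 2950, 3270 and 3410 with Myc in wt, and 2680, 2990 and 3120 against 3540, 3600 and 4280 in ko. Rfc4 rose 1.30-fold in ko (1.13 to 1.49, adjusted p = 0.0197), with a ratio of 1.12 in wt (0.976 to 1.28, adjusted p = 0.373). Rfc1, the large subunit, read 1330, 1330 and 1420 against 1460, 1550 and 1530 in wt and 1210, 1250 and 1310 against 1390, 1370 and 1420 in ko. Its groups did not overlap, and its rise passed in the average over genotypes (1.11-fold, 1.05 to 1.17, adjusted p = 0.0127). The single-genotype ratios of Rfc1 were 1.11 in each, with adjusted p of 0.104 in wt and 0.0874 in ko, and of 0.0379 and 0.0335 with the block. Rfc2, Rfc3 and Rfc5 did not pass.

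Rpa2, the middle subunit of the single-strand binding protein RPA, read 1100, 1120 and 1040 with GFP and 1170, 1300 and 1360 with Myc in wt. In ko it read 864, 972 and 921 with GFP and 1180, 1200 and 1360 with Myc. Every Myc array was above every GFP array. Rpa2 rose 1.36-fold in ko (1.20 to 1.53, adjusted p = 0.00502), and in wt the ratio was 1.18 (1.04 to 1.32, adjusted p = 0.0944, and 0.0357 with the block). Rpa3, the small subunit, had 2 probe sets that differed in brightness and in spread. The brighter one read 685, 972 and 1060 with GFP and 742, 1060 and 940 with Myc in wt, and 581, 894 and 926 against 804, 1160 and 958 in ko. Replicate 1 was the lowest array in every group, and the log2 difference in ko was 0.30. Without the block its interval was wide, at -0.21 to 0.80 (standard error 0.23, limma adjusted p = 0.557). With the block its standard error was 0.08 (adjusted p = 0.0286). The other Rpa3 probe set ranged from 336 to 394 and was also higher with Myc in ko, by 0.16 with a standard error of 0.05. In the limma fit to all probe sets its adjusted p was 0.0713, and 0.0233 with the block. The brighter one had 0.655 and 0.0537 in that fit. Rpa1 ranged from 1390 to 1700 and did not pass.

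The genes that finish the lagging strand and package the copy did not pass without the block. Lig1 differed by 0.01 averaged over genotypes, with an interval of -0.10 to 0.12, and Fen1 by 0.12, with an interval of -0.02 to 0.26. Chaf1b, a subunit of the chromatin assembly factor, ranged from 1430 to 1920 and differed by 0.26 in ko on the log2 scale (0.07 to 0.45, adjusted p = 0.0816, and 0.0123 with the block). Its partner Chaf1a ranged from 708 to 968 and differed by 0.16 in ko (-0.02 to 0.33, adjusted p = 0.27).

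**Figure D3:**
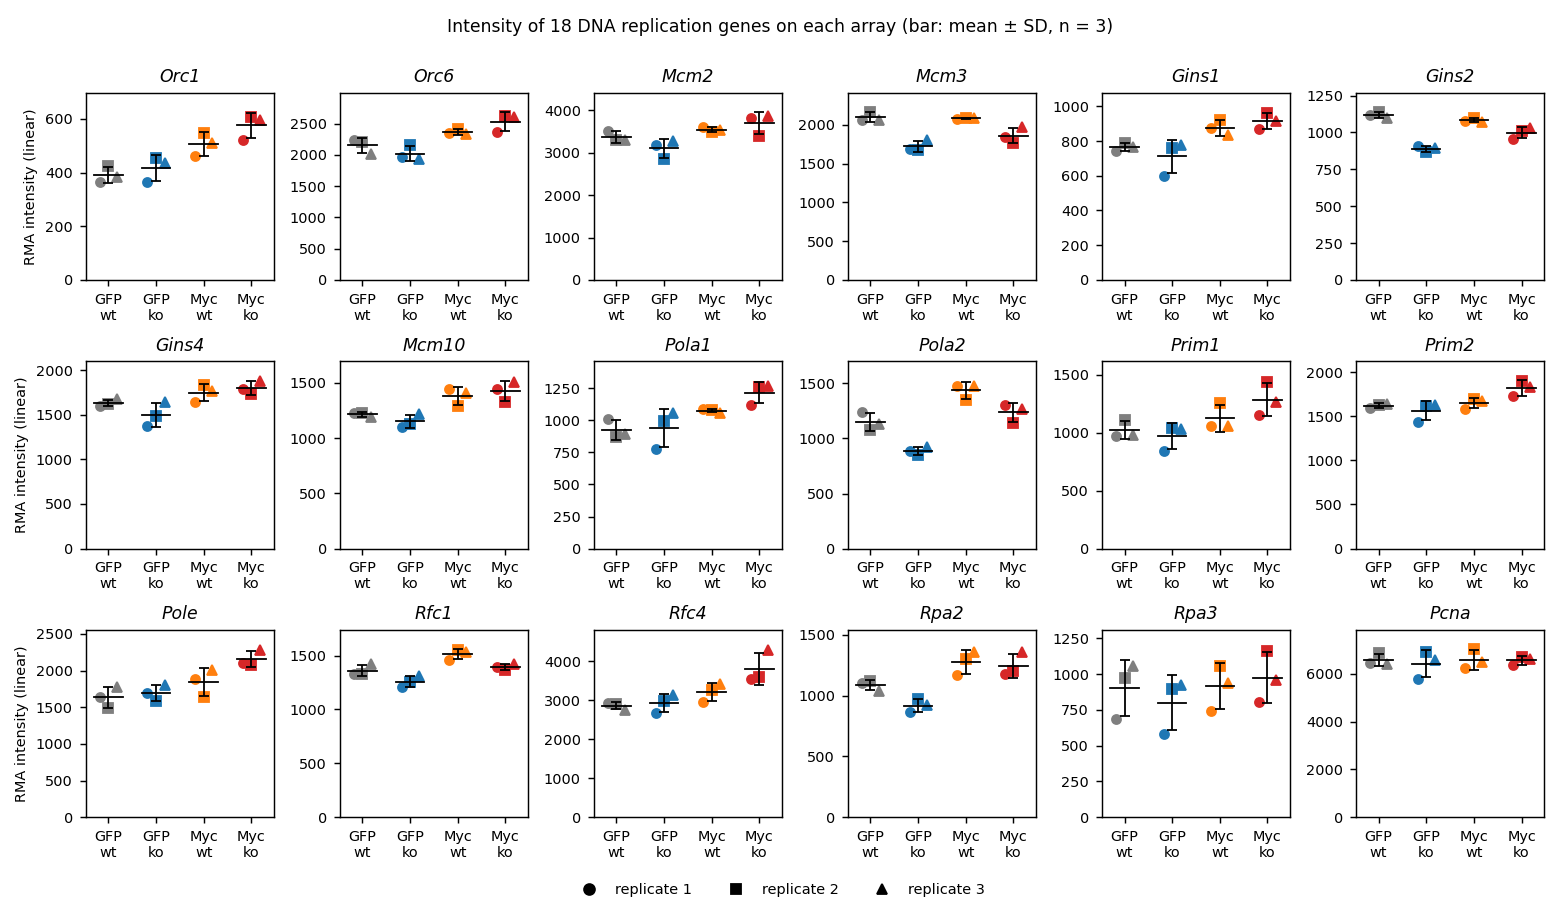
Linear RMA intensity of 18 of the genes on each array (vertical axes start at 0), by virus and labelled genotype, with the group mean ± SD over 3 arrays in black and a marker shape for each replicate number. Orc1, Orc6, Gins1, Mcm10 and Rpa2 have every Myc array above every GFP array, Pcna overlaps throughout, and Gins2, Mcm3 and Pola2 are lower in ko.

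Fewer members were called between the labelled genotypes than for Myc averaged over genotypes, and without the block all of them were lower in ko. With the GFP virus Gins2, Mcm3 and Pola2 fell, 3 of 35, where 2.94% of all genes fell, and 0 members rose, where 1.17% of all genes did. The median log2 difference, ko minus wt, was -0.09 with 26 of 35 below 0, against 0 over all genes. That median was -0.03 without GFP Zfx ko 1 and -0.13 without GFP Zfx ko 3. With the block 4 fell, with Rpa2 added, and 7.12% of all genes did. The arrays did not overlap for 9 members, all lower in ko (10.5% of all genes were lower and 7.44% higher in this way). With the Myc virus 0 members passed in limma, where 5.46% of all genes did in either direction. An unadjusted limma p under 0.05 was found for 7 of 35 members and for 3156 of 19938 genes. The median was 0.05 with 21 of 35 above 0. With the block 3 passed there, Pole and Orc1 higher and Pola2 lower, where 6.05% of all genes were higher and 8.03% lower. Arrays labelled ko and wt did not overlap under Myc for 6 members that were higher in ko (8.4% of all genes) and 4 that were lower (11.1%).

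Averaged over viruses, Gins2, Mcm3 and Pola2 were lower in ko, where 7.34% of all genes were, and 0 members were higher, where 4.73% of all genes were. The count was 3 without any single array. With the block 5 were lower (12.5% of all genes), with Rfc1 and Chaf1a added, and 2 were higher, Pole and Orc1 (10.5%). Gins2 fell by 1.26-fold with GFP (1.17 to 1.35, adjusted p = 0.00318), from 1120, 1140 and 1100 in wt to 908, 869 and 893 in ko. With Myc it went from 1080, 1100 and 1070 to 957, 1010 and 1030, a ratio of 1.09 of wt over ko (1.01 to 1.17, adjusted p = 0.218). The ko arrays were below the wt arrays under both viruses, as they were for Mcm3. Mcm3, a subunit of the Mcm2-7 ring, went from 2060, 2170 and 2070 to 1690, 1680 and 1810 with GFP and from 2080, 2090 and 2090 to 1850, 1770 and 1970 with Myc. It fell by 1.22-fold with GFP (1.12 to 1.32, adjusted p = 0.0159), and its wt over ko ratio with Myc was 1.12 (1.03 to 1.22, adjusted p = 0.133).

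Pola2 fell by 1.29-fold with GFP (1.16 to 1.45, adjusted p = 0.0182), and with Myc its ratio of wt over ko was 1.16 (1.04 to 1.30, adjusted p = 0.138, and 0.0156 with the block). Without the block it was the only member called both for Myc in each genotype and for the genotype with GFP, and with the block Rpa2 was as well. Its lowest group was GFP ko, at 887 ± 34.9 (SD, n = 3), and its highest Myc wt, at 1440 ± 75.5, with GFP wt at 1150 ± 79.1 and Myc ko at 1240 ± 88.5 between them. For Rpa2 the log2 difference, ko minus wt with GFP, was -0.24 (-0.41 to -0.07, adjusted p = 0.136, and 0.0455 with the block). Under Myc the lowest adjusted p belonged to Mcm3, Pola2 and Rfc4, and the Rfc4 difference was 0.25 (0.05 to 0.44, adjusted p = 0.177). Of the 3 members called with GFP, 1 was left without GFP Zfx ko 1, GFP Zfx ko 2 or GFP Zfx wt 3.

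**Figure D4:**
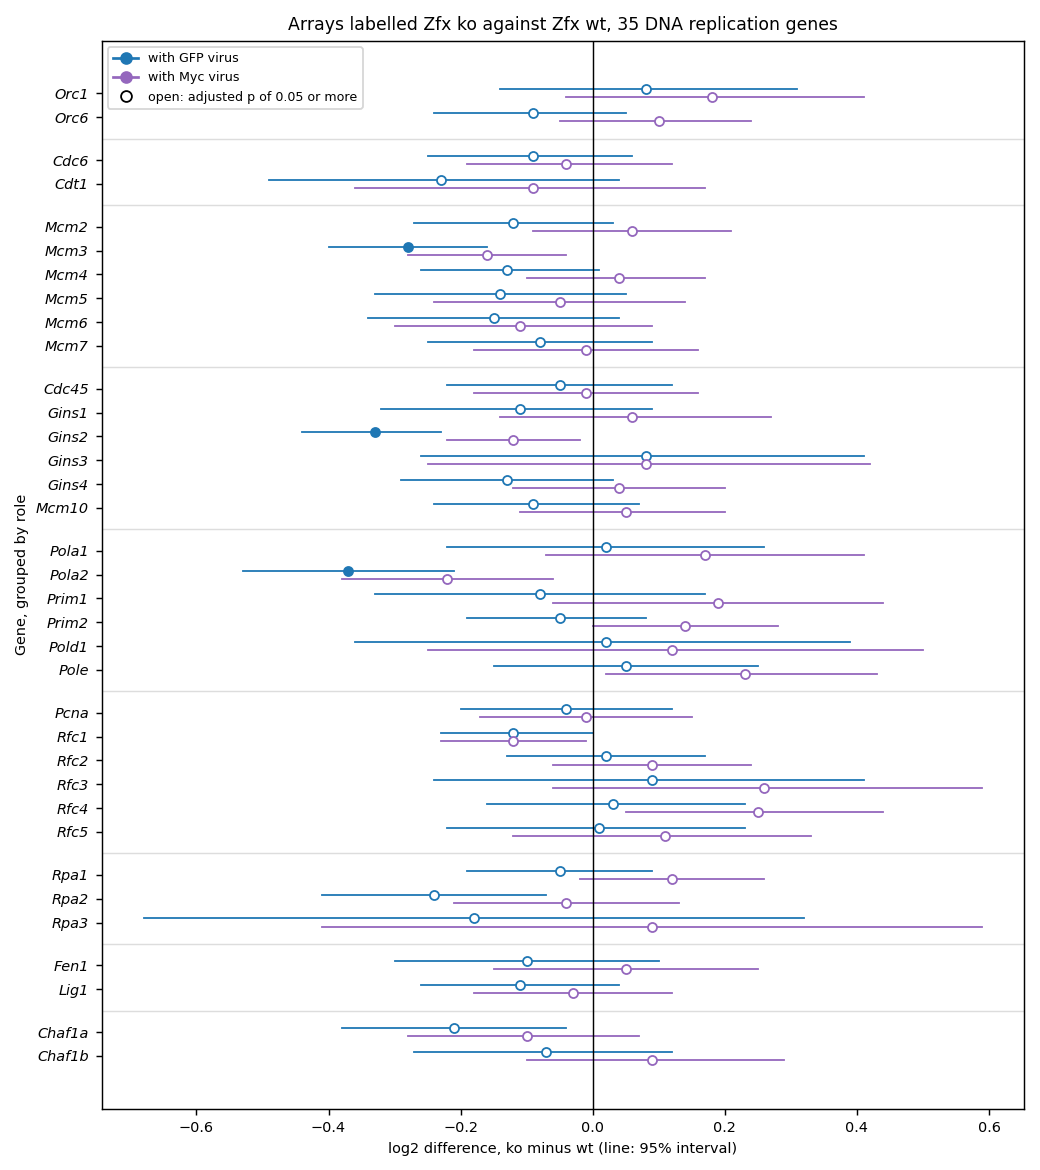
Log2 difference between arrays labelled Zfx ko and Zfx wt for each of the 35 genes, grouped by role, with the GFP virus (blue) and the Myc virus (purple), unadjusted 95% intervals as lines and filled points where the adjusted p was under 0.05. The filled points are Mcm3, Gins2 and Pola2 with GFP, all below 0.

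Whether the Myc effect differed between genotypes was tested as the interaction, the Myc difference in ko minus that in wt. No member passed (limma, lowest adjusted p of the members = 1, and 0.976 with the block), and 0 of all genes passed, or 0.00502% with the block. Without the block, 1 member and 343 of 19938 genes had an unadjusted limma p under 0.05. With the block Orc6, Mcm2, Gins2, Pola2, Prim1, Prim2, Pole and Rpa3 had one, from 0.0107 for Prim1 to 0.0491 for Pola2. The share of all genes with such a p in the fit with the block was not counted. Without the block Gins2 had the lowest p among the members, with an interaction of 0.21 (0.06 to 0.36, unadjusted p = 0.00919). Prim2 at 0.19 (0.00 to 0.39) and Orc6 at 0.19 (-0.02 to 0.40) followed. Interaction values were above 0 for 34 of 35 members, with a median of 0.15 and a range of 0.00 to 0.27, while 10242 of 19938 genes were above 0. The median was 0.09 without Myc Zfx ko 3 and 0.10 without GFP Zfx ko 1. The 35 values come from the same 12 arrays and are not independent of each other. The array Myc Zfx ko 3, in which all 35 genes were above their means over the 12 arrays, enters every one of these values. So does GFP Zfx ko 1, in which 34 were below those means. The 14 calls in ko against 2 in wt are thus not shown to be a difference between genotypes.

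Other genes of the same processes moved in both directions. Of 31 further replication factors, 10 rose and 1 fell with Myc averaged over genotypes, where 13.2% and 8.07% of all genes did. With the block 15 rose (18.4% of all genes) and 3 fell (13.6%). Risers included Rnaseh2a, a subunit of the enzyme that removes RNA from DNA (1.43-fold, adjusted p = 4.40e-04), Orc5 (1.36-fold, 5.16e-04), the polymerase epsilon accessory subunit Pole3 (1.38-fold, 5.19e-04) and Orc2 (1.53-fold, 8.83e-04). Pold4, a small subunit of polymerase delta, was the gene that fell without the block (log2 -0.26, adjusted p = 0.0129; named after its value was seen). Between genotypes, averaged over viruses, 7 of the 31 were lower in ko, where 7.34% of all genes were, and Orc5 was higher (log2 0.33, adjusted p = 0.0052), where 4.73% were. With the block 11 were lower (12.5% of all genes) and 3 higher (10.5%). The checkpoint and firing factors Topbp1 (-0.40, 1.41e-04), Clspn (-0.36, 7.80e-04) and Ticrr (-0.39, 0.00272) were among the lower genes. Topbp1 and Ticrr are known to act at the same step as Gins2, when GINS joins the helicase.

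Of 10 measured genes for deoxynucleotide supply, Dctpp1 (1.58-fold, adjusted p = 1.68e-04) and Dut (1.29-fold, 0.00261), enzymes that remove unwanted nucleotides from the pool, rose with Myc averaged over genotypes. Of all genes 13.2% did. Rrm2, a subunit of ribonucleotide reductase, did not pass for Myc without the block (log2 -0.10, adjusted p = 0.19, and 0.0397 with it) and was lower in ko (log2 -0.25, adjusted p = 0.0063), as was Dut (-0.31, 0.0111), while Samhd1, which degrades deoxynucleotides, was higher (0.44, 0.0313). Of all genes 4.73% were higher and 7.34% lower in ko, averaged over viruses without the block. With the block 3 of the 10 rose with Myc (18.4% of all genes) and 2 fell (13.6%). With it 2 were higher in ko (10.5% of all genes) and 3 lower (12.5%). Of 17 measured genes that govern entry into S phase, 3 rose and 8 fell with Myc averaged over genotypes. Of all genes 13.2% rose and 8.07% fell. With the block 5 of the 17 rose (18.4% of all genes) and 8 fell (13.6%). E2f5 (1.82-fold, 1.66e-04) and E2f4 (1.36-fold, 4.04e-04), E2F factors known mainly as repressors, rose. E2f2, an activating E2F, and Rbl2, a pocket protein that represses E2F targets, fell (log2 -0.45 and -0.40, adjusted p = 0.00227 each). E2f1, a main activator of replication genes, was lower in ko averaged over viruses (-0.62, 1.92e-05), as were Cdc25a (-0.29, 0.0118) and Rbl2 (-0.31, 0.0167), 4 of 17 in all, while E2f7 was higher (0.31, 0.00995). Of all genes 7.34% were lower and 4.73% higher. With the block 7 of the 17 were lower (12.5% of all genes) and 2 higher (10.5%).

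The 27 measured genes of mitosis gave 4 risers and 3 fallers with Myc averaged over genotypes, shares near the 13.2% and 8.07% of all genes. Espl1 (1.22-fold, 0.00459) and Kif20a (1.15-fold, 0.00528) rose, and Nusap1 (log2 -0.28, 0.00143) and the proliferation marker Mki67 (-0.20, 0.00202) fell. The median mitosis value was 0.02, where the 35 replication genes had 0.15. Between genotypes 4 mitosis genes were lower in ko averaged over viruses, where 7.34% of all genes were, led by Cdk1 (-0.29, 0.00115) and Mad2l1 (-0.22, 0.00504), and 0 were higher, where 4.73% were. With the block 8 were lower, where 12.5% of all genes were, and 0 higher (10.5%).

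**Figure D5:**
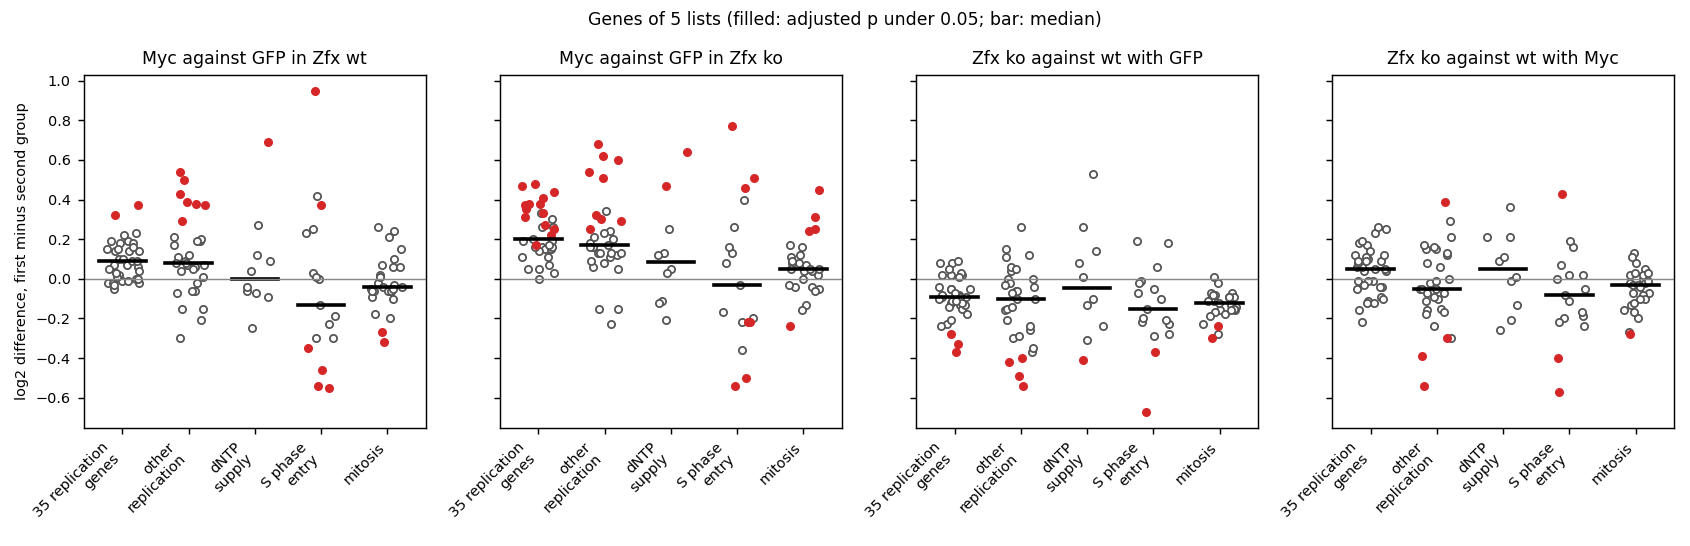
Log2 difference of each gene (vertical axis) for the 35 replication genes and 4 further lists in the 4 comparisons between 2 groups, with filled points at an adjusted p under 0.05 and the median as a bar. The replication genes have medians of 0.09 and 0.20 for Myc in wt and ko, and of -0.09 and 0.05 for ko against wt with GFP and with Myc.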

How the data were processed

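Expression in 12 samples was measured on gene arrays. The authors deposited linear intensities for each probe set, computed with RMA per the submitters' processing notes. No source used here names a software version or genome build. Because RMA makes array distributions alike, a shift shared by most genes would not be seen. Log2 was taken without a pseudocount. Of 35556 probe sets, 21789 carry 1 gene symbol, 1621 carry several and 12146 are not listed; those with 1 symbol gave 19938 genes, 1 probe set each (the highest mean), with no filter on dim probe sets. Array medians ran from 127 to 137.2.

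Groups came from the sample titles. limma 3.58.1 in R 4.3.3 fitted 4 group means to all 12 arrays (8 residual degrees of freedom, 6 with the block), and an adjusted p under 0.05 (Benjamini-Hochberg over all genes) was a call. Intervals are 95%, unadjusted and from the fit without the block, also where an adjusted p with the block stands beside them. The number of arrays limits the precision. The fit was checked on simulated data in which arrays were drawn independently. That check does not cover the spread that arrays with equal replicate numbers share.

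Pairing by replicate number was judged from the data, because the labels state no meaning for the numbers. For 18 pairs of arrays with equal numbers in different groups, correlations of deviations from the group mean ran from 0.40 to 0.85 (median 0.64). For 36 pairs with unequal numbers the median was -0.42. Deviations from a group mean cancel out within the group, so this negative value follows from the positive ones and is not separate evidence. Numbers were taken to pair the arrays because of the pairs with equal numbers. The fit with a block is given where calls of members change or where counts, for the averages over the other factor with the further lists, move by over 1.5 times.

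The members, gene lists, motifs and tests were chosen with earlier results of these data known. Every member may be named; values on each array are given for up to 16 called members by lowest adjusted p, and for Pcna, Orc1 and Rpa3, and up to 4 called genes per other list and comparison. Promoter sequences are RefSeq's. Alternatives were the block, array weights, median centring, a second quantile normalization, eBayes with trend and robust settings, fits to the compared groups alone, to genes brighter than the median probe set or to all probe sets, and each array left out.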

Additional observations from a re-analysis of the deposited data

Results flagged for a closer look

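For 6 members (the share of all genes was not counted) the 2 effects of the same contrast went opposite ways in all 3 same-numbered pairs of arrays. The test of the difference itself, limma's interaction, gave an adjusted p of 1 for each of them, and of 0.976 to 0.999 with the replicate number as a block, so none is shown to differ.

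Gins2 was lower with Myc in every pair in wt (log2 -0.06, -0.05 and -0.03) and higher in every pair labelled ko (0.08, 0.22 and 0.20), a difference of 0.21. The others concern ko against wt, which was below 0 in every pair with GFP and above 0 in every pair with Myc. The difference, with Myc minus with GFP, was 0.27 for Rpa3, 0.19 for Orc6, 0.19 for Prim2, 0.17 for Chaf1b and 0.16 for Mcm4. Rpa3 pairs were -0.24, -0.12 and -0.19 with GFP and 0.12, 0.12 and 0.03 with Myc. Mcm4 pairs were -0.19, -0.15 and -0.03 with GFP and 0.03, 0.03 and 0.05 with Myc.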

How the results depend on the processing

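The count of members called for Myc in wt, 2 without the block, was 5 with the replicate number as a block, 4 with array weights, 1 with arrays centred on their medians, with a trended and robust variance prior, with only the groups compared and with all probe sets, and 0 with a second quantile normalization. For Myc in ko the count of 14 was 3 with only the groups compared and 8 with all probe sets. For ko against wt with GFP the count of 3 was 1 with only the groups compared. With the replicate block the count for ko against wt with Myc went from 0 to 3 and that averaged over viruses from 3 to 7. Leaving out each array in turn gave 0 to 2 members for Myc in wt, 3 to 11 for Myc in ko, 1 to 3 for the genotype with GFP, 0 with Myc, 10 to 14 for Myc averaged over genotypes, 3 for the genotype averaged over viruses and 0 for the interaction. Fits of only the groups compared and fits without 1 array use fewer arrays, and fits of all probe sets test more features. The cause of the other moves was not tested. Apart from the block, the share of all genes called under an alternative was not counted. Over 61 results of single members and 1192 comparisons with an alternative, 1007 kept their side of the threshold, 153 lost it, 32 gained it and 0 changed direction. Of 36 member calls without the block, 15 held under every alternative run, among them Pola2 and Rpa2 for Myc in ko, Orc1, Orc6, Gins1, Mcm10, Pola1, Pola2, Rfc1, Rfc4 and Rpa2 for Myc averaged over genotypes, and Gins2, Mcm3 and Pola2 for the genotype averaged over viruses.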
